A study of Mus musculus with 4 samples.

Results

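The genes described here are those of the oxygen-sensing pathway that ends in the hypoxia-inducible factors (HIFs). They are *Hif1a*, *Epas1*, *Arnt*, *Egln1*, *Egln2*, *Egln3*, *Vhl* and *Hif1an*, with *Bnip3* and *Ankrd37* as 2 genes that HIF switches on. These are 10 genes, chosen by name and known role, out of 21938 protein-coding genes in the GENCODE M21 annotation. A peak was assigned to a gene when it lay in the gene body or within 10 kb of any of its annotated transcription start sites (TSSs). Accessible chromatin was mapped by ATAC-seq, in which the Tn5 transposase cuts and tags open DNA, in whole hearts of mouse embryos at E9.5. WT embryos were compared with *Smyd1-KO* embryos, which are homozygous null for *Smyd1*, a gene for a histone methyltransferase of cardiac and skeletal muscle. There were 2 libraries per genotype, each from 4 pooled hearts of either sex, and 40000 viable cells entered each library without sorting for a cell type.

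The deposited data are a list of 25745 peaks enriched in *Smyd1-KO* hearts, called gained peaks below, and a list of 106 peaks enriched in WT hearts. Both hold only peaks that differed by at least 2-fold between genotypes in the authors' call. All intervals have the same width, and each carries a score, the tag total that HOMER gave the peak in the combined libraries of the genotype where it was enriched. Scores are not whole counts: 100% of those in the gained list and 12.3% of those in the WT list are multiples of 0.5, and the scaling behind this is not given in the sources used here. The median score was 180.5 tags in the gained list (range 24.5 to 18591) and 36.35 tags in the WT list (range 25.7 to 941.3), and because the steps differ the scores were not compared between the lists. The score is a level of signal in *Smyd1-KO* hearts and not the size of the change from WT, and because the libraries were combined it has no replicate error. The spread between libraries is therefore not known from these lists, and no test between genotypes was possible with them. In whole hearts, a different mix of cell types and a different accessibility per cell cannot be told apart.

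HIF is a dimer of an oxygen-regulated alpha subunit, HIF1A or EPAS1 (HIF2A), and the constant beta subunit ARNT. When oxygen is present, the prolyl hydroxylases EGLN1, EGLN2 and EGLN3 (also known as PHDs) mark the alpha subunit for capture by VHL, the recognition subunit of a ubiquitin ligase, and the asparaginyl hydroxylase HIF1AN (also known as FIH) blocks its contact with coactivators. When oxygen falls these marks are lost, the dimer accumulates, and it binds hypoxia response elements whose core is ACGTG or GCGTG. The embryonic heart develops in low oxygen and needs this pathway for its growth.

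All 10 genes had at least 1 gained peak and none had a WT-enriched peak. Among all protein-coding genes, 62.6% had a gained peak by the same rule and 0.155% had a WT-enriched one. The 10 genes held 16 gained peaks, and 5 of them had 2 or more, against 29.4% of protein-coding genes. The distance to the nearest TSS was at most 3 kb in 10 of 10 genes (51.2% of protein-coding genes) and at most 1 kb in 10 of 10 (48.1%). It was at most 150 bp in 10 of 10 (42.1%). That last limit lies just above the distances of *Epas1* and *Vhl*, the farthest of the 10 genes, so its 10 of 10 depends on the limit. With 100 bp the count was 8 of 10 (40.1%). In 4 of 10 genes, *Egln1*, *Egln2*, *Egln3* and *Hif1an*, the peak covered an annotated TSS (27.8%). The nearest WT-enriched peak was between 1.33 Mb (*Bnip3*) and 104.90 Mb (*Egln1*) from a TSS. The whole genome holds only 106 such peaks, and the same distance was not computed for other genes.

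The type of promoter moved with these counts. A gene was counted as CpG-rich when any of its RefSeq promoter sequences (GRCm38.p6, 250 bases before to 50 bases after the TSS) had at least 50% GC and an observed-to-expected CpG ratio of at least 0.6. Promoter sequences were matched for 9 of the 10 genes, all but *Epas1*, and all 9 were CpG-rich, as were 8297 of the 16539 protein-coding genes with a matched promoter. Of those 8297 genes, 86.3% had a gained peak by the rule and 76.2% had one within 1 kb of a TSS. The members were also somewhat longer than other genes, with a median length of 21.8 kb against 17.4 kb and a median of 4 TSSs against 3. How far the promoter type and gene length account for the 10 of 10 was not tested.

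**Figure D1:**
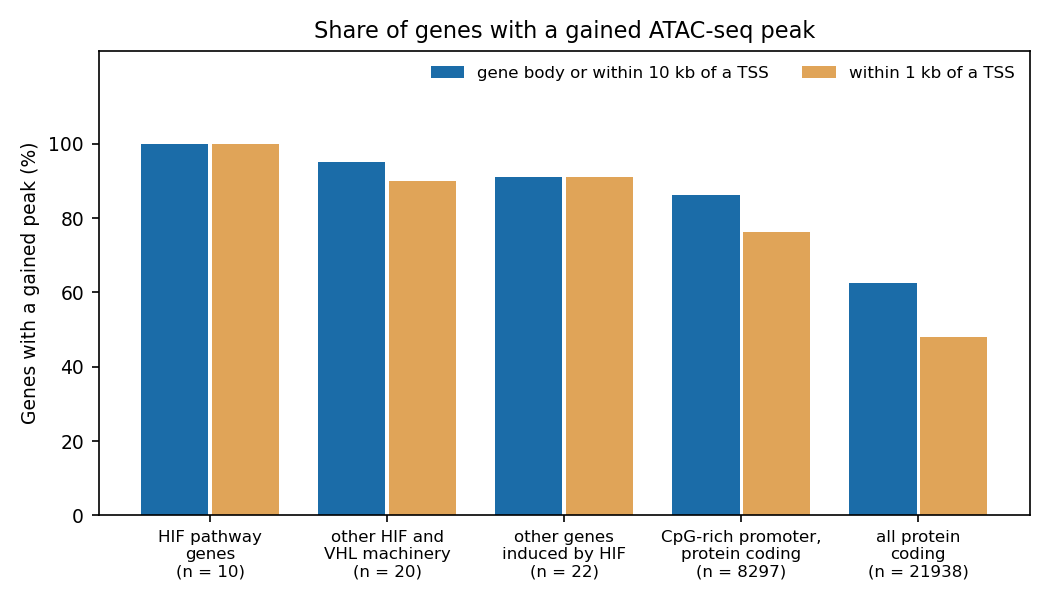
Share of genes with a gained peak, in percent, by the full rule and within 1 kb of a TSS, for the 10 HIF pathway genes, the other pathway lists, all protein-coding genes and those with a CpG-rich promoter. Every HIF pathway gene had a gained peak within 1 kb, and the share among genes with a CpG-rich promoter was 76.2%, above the 48.1% of all protein-coding genes.

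The genes of the 3 HIF subunits each had a gained peak just upstream of a TSS. *Hif1a* (chr12:73901375-73947530, plus strand, mm10) had 3 gained peaks. The strongest, at chr12:73907657-73907805, scored 880 tags and ended 99 bp upstream of a TSS that 2 *Hif1a* transcripts share. It also lies in intron 1 of a longer *Hif1a* transcript that starts further upstream. The second *Hif1a* peak, at chr12:73908369-73908517, scored 352.5 tags and began 465 bp downstream of the same TSS, in intron 1. The third, at chr12:73931373-73931521 in intron 5, scored 29 tags and was ranked 25738 of the 25745 gained peaks. Among the gained peaks of *Hif1a*, scores were therefore highest near this shared TSS, and sites that did not differ by 2-fold are not seen. The farthest upstream TSS of the gene had no gained peak nearer than 6282 bp.

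*Epas1* (chr17:86753700-86833410, plus strand) encodes the other alpha subunit, known for its role in endothelial cells. Its promoter peak at chr17:86753403-86753551 scored 565 tags and ended upstream of the TSS, within 150 bp of it. Its other peak, at chr17:86762571-86762719 in intron 1 and 8871 bp downstream, scored 46.5 tags. *Arnt* (chr3:95434388-95497240, plus strand) had 1 gained peak, at chr3:95434229-95434377, which scored 695.5 tags and ended 11 bp before the TSS. The 4 internal *Arnt* TSSs had no gained peak nearer than 28209 bp. The order of the 3 promoter peaks was thus *Hif1a*, *Arnt* and *Epas1*.

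The sequences of these 3 promoter peaks are shown on the plus strand, which is the coding strand of all 3 genes, from 5′ to 3′. Capitals mark each ACGTG or GCGTG core on either strand, so a core on the opposite strand appears as CACGT or CACGC and matches that overlap run together. The *Hif1a* peak holds 3 matches, of which 2 overlap in the palindrome CACGTG. *Arnt* holds 1 GCGTG core and *Epas1* holds none.
Hif1a promoter peak: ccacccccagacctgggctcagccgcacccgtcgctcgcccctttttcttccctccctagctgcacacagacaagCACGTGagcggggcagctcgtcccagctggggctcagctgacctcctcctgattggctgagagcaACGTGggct
Arnt promoter peak: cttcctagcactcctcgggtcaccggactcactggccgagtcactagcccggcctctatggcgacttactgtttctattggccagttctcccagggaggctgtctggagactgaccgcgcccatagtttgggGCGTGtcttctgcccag
Epas1 promoter peak: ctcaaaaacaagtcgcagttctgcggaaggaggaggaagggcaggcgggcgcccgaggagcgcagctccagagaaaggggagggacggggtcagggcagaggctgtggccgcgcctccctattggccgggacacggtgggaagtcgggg

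The prolyl hydroxylase genes each had a gained peak over a TSS. *Egln1* (chr8:124908587-124949324, minus strand) encodes PHD2, the main oxygen sensor of most cells. Its single peak, at chr8:124949178-124949326, scored 533 tags and lay almost wholly in the 5′ UTR of exon 1. It was the most GC-rich of the 16 peaks, at 83.9% GC. *Egln2* (chr7:27158658-27166802, minus strand) had a peak over the TSS, at chr7:27166742-27166890, with 475.5 tags. A second *Egln2* peak, at chr7:27159941-27160089, scored 329.5 tags. That one lay in intron 3 of the coding transcript, 6324 bp from the coding TSS and 782 bp from the TSS of a processed transcript, so it counts among the peaks within 1 kb through a non-coding start only.

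*Egln3* (chr12:54178981-54203860, minus strand) encodes PHD3 and is itself induced by HIF. The peak over its TSS, at chr12:54203785-54203933, scored 432 tags. A peak in intron 1, at chr12:54192045-54192193 and 11667 bp downstream of the TSS, scored 528 tags and so exceeded the promoter peak. Of gained peaks farther than 1 kb from any TSS, whose median was 90.5 tags, 98.2% scored lower than this one. Among the members, 3 genes had both a peak within 1 kb of their TSSs and one beyond 1 kb of every TSS, and in *Egln3* alone the distant peak scored higher. Of 3148 protein-coding genes with both kinds of peak, 11.0% had that order. This comparison was chosen after the *Egln3* values were seen.

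The intronic *Egln3* peak and the core-bearing stretches of *Egln1* and *Egln2* are shown in the direction of transcription, on the minus strand, with cores in capitals. The *Egln3* intron 1 peak holds 1 ACGTG core on the strand opposite to the gene, whereas the peak over the *Egln3* TSS holds none. For *Egln1* the 25 bases around its core, at chr8:124949308-124949332, are given, and the middle of that core is 4 bp after the TSS. For *Egln2* the 88 bases of the peak upstream of the TSS, at chr7:27166803-27166890, are followed by 25 bases around the palindrome CACGTG that spans the TSS itself.
Egln3 intron 1 peak: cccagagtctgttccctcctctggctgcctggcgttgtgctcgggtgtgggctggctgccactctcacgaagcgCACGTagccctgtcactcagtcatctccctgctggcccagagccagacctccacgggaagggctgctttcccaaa
Egln1 core at the TSS: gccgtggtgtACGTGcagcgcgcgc
Egln2 upstream part: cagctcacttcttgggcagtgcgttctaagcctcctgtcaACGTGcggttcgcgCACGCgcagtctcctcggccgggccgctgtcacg
Egln2 core at the TSS: ggccgctgtCACGTGcccagcgggc

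*Vhl* (chr6:113623959-113631633, plus strand) had the weakest promoter peak of the 10 genes. This peak, at chr6:113624105-113624253, scored 314.5 tags and began 146 bp after the TSS, in coding exon 1. A second peak assigned to *Vhl*, at chr6:113638310-113638458, scored 630.5 tags but lay outside the gene body, 8803 bp from the nearest *Vhl* TSS and 9 bp from a TSS of the neighbouring gene *Irak2*, which encodes a kinase of interleukin-1 receptor signalling. *Hif1an* (chr19:44562850-44576274, plus strand) had 1 peak, at chr19:44562729-44562877, which covered the TSS and scored 390.5 tags. Neither the *Vhl* exon 1 peak nor the *Hif1an* peak holds a core. Each of the 5 genes that restrain HIF therefore had a gained peak at or just after its own TSS, between 314.5 and 533 tags.

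The target genes carried the strongest promoter peaks. *Bnip3* (chr7:138890836-138909519, minus strand) encodes a mitochondrial protein that marks mitochondria for autophagy when oxygen is low. Its single gained peak, at chr7:138909597-138909745, scored 1119.5 tags and was ranked 459 of 25745, ending 78 bp upstream of the nearest TSS. *Ankrd37* (chr8:45996902-46005707, minus strand) encodes a small ankyrin-repeat protein and is a widely used read-out of HIF activity. Its single peak, at chr8:45999936-46000084, scored 1122 tags and was ranked 453, ending 69 bp upstream of a TSS. That peak also lies in intron 2 of a longer *Ankrd37* transcript and 628 bp from a TSS of *Lrp2bp*. The scores of the 2 targets differ by less than 3 tags.

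Both target peaks are shown in full in the direction of transcription (minus strand) because they combine the highest scores with several cores. The *Bnip3* peak holds 2 ACGTG matches that form 1 CACGTG palindrome and 2 GCGTG matches, all within its last 30 bases. The *Ankrd37* peak holds 2 GCGTG matches on opposite strands that overlap.
Bnip3 promoter peak: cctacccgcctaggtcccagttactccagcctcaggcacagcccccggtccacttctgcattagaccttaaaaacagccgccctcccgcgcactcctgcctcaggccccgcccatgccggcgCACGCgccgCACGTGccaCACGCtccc
Ankrd37 promoter peak: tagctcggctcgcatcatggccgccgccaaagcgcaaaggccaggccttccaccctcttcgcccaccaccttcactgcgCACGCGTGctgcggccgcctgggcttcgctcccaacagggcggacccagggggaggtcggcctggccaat

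**Figure D2:**
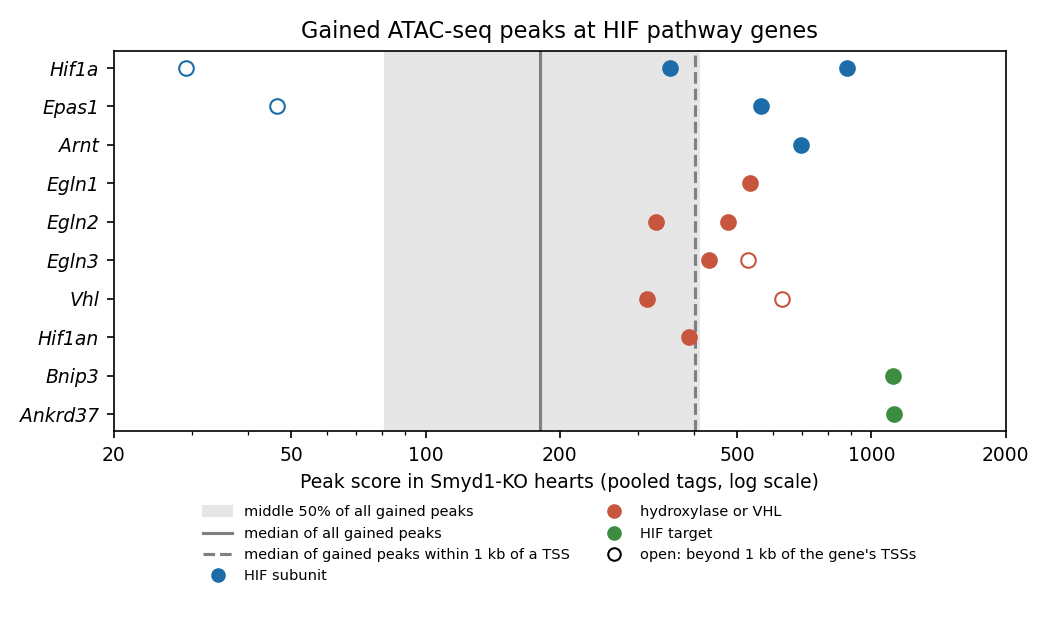
Score in pooled tags (log scale) of each of the 16 gained peaks, by gene and role, with those at most 1 kb from one of the gene's own TSSs set apart from the others. *Bnip3* and *Ankrd37* stand highest at 1119.5 and 1122 tags, and the 2 lowest points are the *Hif1a* intron 5 peak (29) and the *Epas1* intron 1 peak (46.5).

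**Figure D3:**
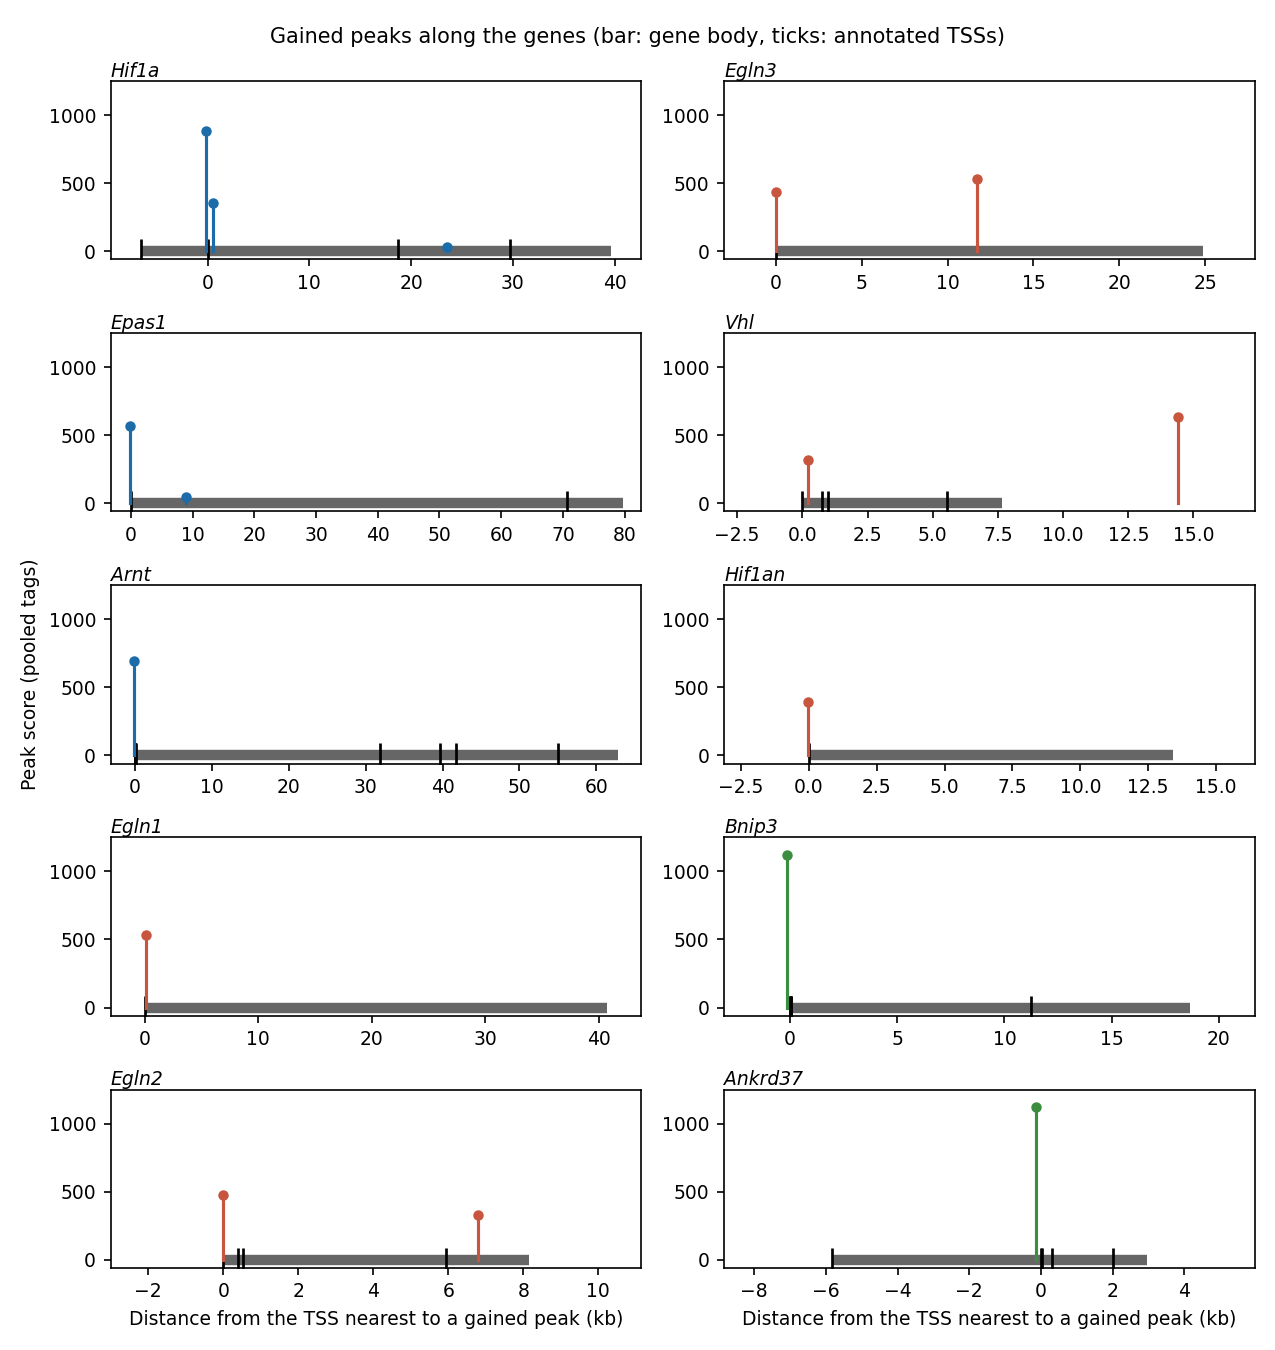
Position of the gained peaks along each gene as the distance in kb from its TSS, in the direction of transcription. Most points sit at the TSS, and the *Egln3* point 11667 bp downstream is the strongest of those inside a gene and far from its coding start.

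Over the 16 peaks the median score was 501.75 tags, and 14 of them were at or above the median of the gained list. The 12 peaks at most 1 kb from one of the gene's own TSSs ranged from 314.5 to 1122 tags, with a median of 504.25, against 402.5 for the 12239 gained peaks of the list within 1 kb of any TSS. The 4 other peaks scored 29, 46.5, 528 and 630.5 tags. Taking the strongest peak within 1 kb per gene, the 10 genes had a median of 549 tags, and the 10561 protein-coding genes with such a peak had a median of 469.5 (quartiles 305.5 and 699.5). By gene, *Hif1a*, *Bnip3* and *Ankrd37* were above the upper quartile, and none of the 10 was below the lower one. The 10561 genes include every promoter type, and scores were not compared with those of genes with a CpG-rich promoter alone.

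Within the pathway, the roles separated by the score of the strongest peak within 1 kb of a TSS of the gene. The target genes *Bnip3* and *Ankrd37* each exceeded 95.2% of those 10561 genes. The subunit genes followed, with *Hif1a* above 87.0%, *Arnt* above 74.7% and *Epas1* above 62.4%. The hydroxylases came next, *Egln1* above 58.6%, *Egln2* above 50.9%, *Egln3* above 44.3% and *Hif1an* above 37.9%, and *Vhl* was last, above 26.1%. The highest such score among the hydroxylases and *Vhl* (533) was below the lowest among the subunits (565), and the highest subunit score (880) was below both targets. *Egln3*, also induced by HIF, was counted with the hydroxylases, and with it among the targets their scores would overlap those of the other roles. The order does not hold over all assigned peaks, since the distant *Vhl* peak beside *Irak2* scored 630.5 tags. With 2 to 5 genes per role and no replicate values, neighbouring genes such as *Egln1* and *Epas1* cannot be ordered beyond error, and the order is a description of these 10 genes.

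**Figure D4:**
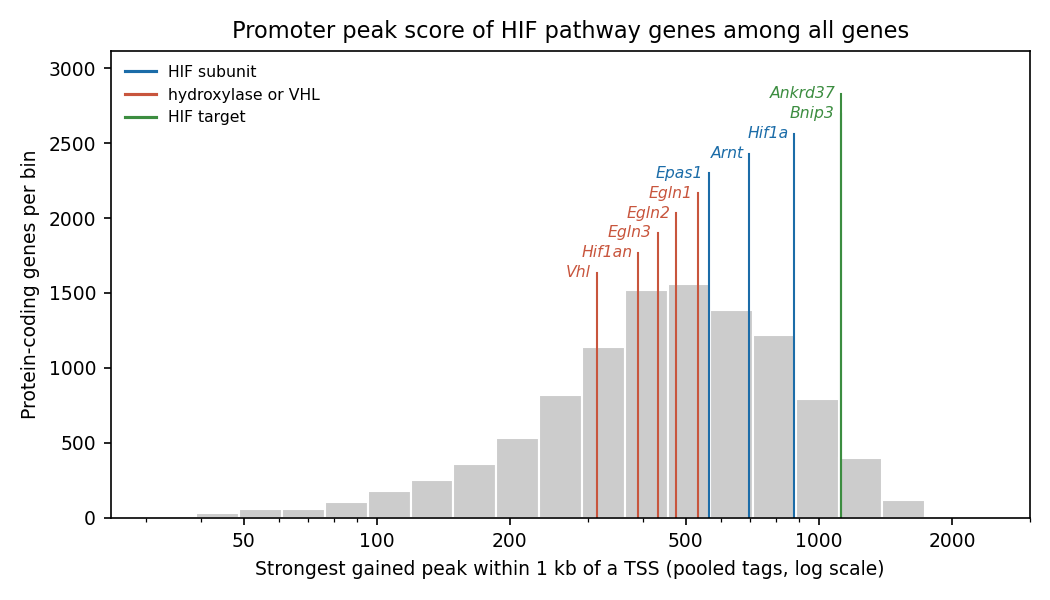
Histogram of the strongest gained peak within 1 kb of a TSS (pooled tags, log scale) over 10561 protein-coding genes, with a vertical line for each HIF pathway gene, coloured by role. The lines run from *Vhl* (314.5) through the hydroxylases and subunits to *Bnip3* and *Ankrd37*, which nearly coincide.

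Cores were counted on both strands. A core, ACGTG or GCGTG, was present in 9 of the 16 peaks, and 28.8% of all gained peaks held one. By gene, 6 of 10 had a core in a peak within 1 kb of a TSS (*Hif1a*, *Arnt*, *Egln1*, *Egln2*, *Bnip3* and *Ankrd37*), against 48.1% of protein-coding genes with such a peak. Among the peaks within 1 kb it was 7 of 12, against 41.4% of gained peaks within 1 kb of any TSS. Control strings with the same base composition, GTCGA or TGCGG, were also present in 7 of those 12 peaks, against 39.7% of gained peaks within 1 kb of any TSS. As pairs of strings, the cores and the controls were thus equally frequent at these promoters, which have a median of 69.1% GC against 65.8% for all gained peaks within 1 kb. String by string the 12 peaks differed, with ACGTG in 5 (12.9% of gained peaks within 1 kb of any TSS) and its control GTCGA in 0 (6.40%), and with GCGTG in 5 (33.0%) and its control TGCGG in 7 (35.5%).

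The 2 forms of the core differed in how common they are. ACGTG was in 6 of the 16 peaks and in 10.1% of the list, and GCGTG was in 6 of the 16 and in 21.3% of the list. Of the other strings searched, GGGCGG, the GC box bound by Sp factors, was in 8 of the 12 peaks within 1 kb and in 51.6% of such peaks in the list. The *Egln1* peak held 4 of these. AGATAA for GATA factors and GGAATG for TEAD factors were in none of the 16 peaks. They were in 8.87% and 10.6% of the list, and in 2.63% and 5.65% of gained peaks within 1 kb of any TSS, where 12 of the 16 peaks lie. A match is a string in the sequence and does not show binding.

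Other genes of the pathway were counted by the same rule, by which 62.6% of protein-coding genes had a gained peak and 48.1% had one within 1 kb of a TSS (86.3% and 76.2% of those with a CpG-rich promoter). Of 20 further genes for HIF and VHL machinery, such as coactivators, ubiquitin ligase subunits and chaperones, 19 had a gained peak and 18 had one within 1 kb of a TSS, with a median of 473.5 tags for the strongest. *Ubxn7*, an adaptor that links ubiquitinated HIF1A to a segregase, had none. The highest were *Usp20*, a deubiquitinase that binds VHL, at 1518 tags, *Rbx1*, the RING subunit of the VHL ligase, at 816.5, and the chaperone gene *Hsp90aa1* at 669.5. Of 22 further HIF-induced genes, 20 had a gained peak, all 20 within 1 kb, with a median of 584.75 tags. *Car9* and *Car12*, which encode carbonic anhydrases, had none. The highest were the histone demethylase gene *Kdm4b* at 1476.5 tags, *P4ha1*, which encodes a collagen prolyl hydroxylase, at 1112.5, and *Ddit4*, an inhibitor of mTORC1, at 961. A core lay in a peak within 1 kb in 14 of the 18 machinery genes and in 17 of the 20 induced genes with such a peak, against 48.1% of protein-coding genes with such a peak. Control strings were not counted for these lists. The part of GC content, promoter type and number of peaks per gene in these core counts was not tested. Neither list had a WT-enriched peak.

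*Smyd1* itself had 2 gained peaks and 0 WT-enriched peaks by the same rule, neither within 3 kb of a TSS, so the lists do not check the genotype. Marker genes of the cell types of the heart were read in the same way. A gained peak was present at 6 of 6 cardiomyocyte genes, 4 of 6 endothelial and endocardial genes, 3 of 6 erythroid genes and 2 of 4 epicardial genes, and within 1 kb of a TSS at 5 of 6, 1 of 6, 0 of 6 and 2 of 4, against 62.6% and 48.1% of protein-coding genes. None of these 22 markers had a WT-enriched peak (0.155% of protein-coding genes). A list of peaks that differ cannot give the makeup of the hearts, and the part of cell makeup in the gained peaks at HIF pathway genes was not tested.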

How the data were processed

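Accessible chromatin of *Smyd1-KO* and WT hearts at E9.5 was analysed from the deposited peak lists. Per the study's methods, the authors aligned reads to mm10 with BWA-MEM, called peaks with HOMER 4.10.3 and kept peaks with a change of at least 2-fold. Per the headers of the study's peak tables, HOMER compared the combined libraries of the genotypes. The deposited score is a signal, the tag total in those tables, in steps of 0.5 in the gained list and other decimals in the WT list, so it is not a raw count. Tn5 offset, duplicate and multi-mapping treatment are not given in the sources used here, and the depth of the single libraries was not analysed here. The 4 libraries share these 2 lists, so counts were compared with all protein-coding genes and no test was run.

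Intervals were read as BED, with starts counted from 0 and printed counting from 1. They were joined to GENCODE M21 genes and GRCm38 sequence with Python 3.11.15, numpy 2.4.6 and pysam 0.24.0, and plotted with matplotlib 3.10.9. Distances run from the nearer edge of a peak. The joins and string searches were tested on simulated data. All 10 genes were named with every peak, as were other pathway genes with no gained peak or among the 3 highest scores. The members and lists were chosen with earlier results of these data known, and the CpG-rich class was added after seeing the data. The alternatives were other windows, TSS sets, a score minimum, the interval start and other strings.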

Additional observations from a re-analysis of the deposited data

How the results depend on the processing

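The lists hold combined libraries, so no library could be left out in turn, the libraries were to be sequenced to 1 common depth but the lists do not show the depth reached, and a peak that did not pass the 2-fold threshold is not seen. No paired analysis was possible because the libraries of a genotype were combined and the scores carry no replicate number. Of 42 alternative values, 34 were within 1.5 times the reported count or equal to the reported median. These include 2 core counts that do not bear on stability, namely the control strings (7 of 16 peaks) and the peaks within 1 kb (7 of 12). The count with ACGTG alone (6 of 16 peaks) sat at the edge of the 1.5-fold limit. Counts of 0 WT-enriched peaks had little room to move. All 10 genes had a gained peak under each alternative tried on that count, and none had a WT-enriched one with the other windows, TSS sets, score minimum or midpoint rule, while the share of protein-coding genes with a gained peak ranged from 50.9% to 79.2%. With a window of 50 kb the peaks rose to 30 and their median score was 371.5 tags. The median was 475.5 tags with 3 kb, with TSS windows only, with coding TSSs only and with peaks nearest to the gene only, and 530.5 with peaks at or above the list median only. Counting peaks within 100 bp of a TSS in place of those covering it gave 8 genes (40.1% of protein-coding genes). Cores were in 12 of 16 peaks when each was extended by 75 bp (46.2% of the list). Reading starts as counted from 1, an alternative chosen after seeing the data, left the 9 peaks with a core at 9.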
